A study of Homo sapiens with 12 samples.

Results

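The 9 genes described here carry folate into the cell, hold it there and pass its one-carbon units along. They are the folate carrier SLC19A1 (also called the reduced folate carrier), the polyglutamate synthase FPGS, the serine hydroxymethyltransferases SHMT1 and SHMT2, the folate enzymes MTHFD1, MTHFD1L and MTHFD2, thymidylate synthase TYMS and methionine synthase MTR. They are a fixed list of gene names, chosen with earlier results of these data known, and make up 9 of the 60666 gene IDs in the count table. Each symbol matched 1 ID, and all 9 were among the 23493 genes that passed the filter on low counts. RNA came from KMS-11, KMS-12 and RPMI8226, established human multiple myeloma lines whose genotype is labelled WT, each grown in RPMI medium with fetal bovine serum and given either the solvent DMSO or 1 µM of the BET bromodomain inhibitor JQ1 for 72 h. BET proteins read acetylated histones and bring elongation factors to active genes, and JQ1 fills their acetyl-lysine pockets. Each of the 6 groups had 2 libraries, 12 in all. The labels do not say which derivative of KMS-12 was used or whether the libraries of a group came from separate cultures. The p-values here therefore reflect the variation among libraries within groups, pooled over the 6 groups and possibly technical alone. A line is a single tumour's descendant grown outside the bone marrow.

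Folate carries one-carbon units from serine to the synthesis of purines, thymidylate and methionine. The pathway runs in parallel in mitochondria and cytosol. In mitochondria SHMT2 splits serine into glycine and a folate-bound one-carbon unit, MTHFD2 oxidises that unit, and MTHFD1L releases it as formate. In the cytosol MTHFD1 takes formate up again onto folate, and SHMT1 can move units to or from serine. TYMS spends a unit on thymidylate and MTR spends one on methionine. SLC19A1 also brings the antifolate methotrexate into cells, FPGS adds the glutamates that keep folates and antifolates inside, and dividing lymphoid cells are known for their need of this pathway. MYC, ATF4 and the E2F proteins are transcription factors known to act on genes of the pathway.

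Promoter sequence was held for 8 of the 9 members in a RefSeq table (GRCh38.p14), and SHMT2 was the member with no entry. The 250 bases before each start were searched on both strands for CACGTG (the E-box that MYC binds), TGATGNAA (the ATF4/CEBP element), TTTCCCGC and TTTGGCGC (E2F) and CCGGAAGT (ETS). The matches are shown because the RNA of MYC, ATF4 and E2F1 is set beside the members below. Capitals mark the match, all 5 stretches are written on the plus strand, and the E2F and ETS letters lie there in reverse complement:
MTHFD1, E-box, chr14:64388323-64388352, match from 15 bases before the start: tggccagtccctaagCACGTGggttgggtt
FPGS, E-box, chr9:127803093-127803122, match from 76 bases before the start: tgggcgcgacgaCACGTGggcctgcgctga
TYMS, E2F, chr18:657603-657632, match from 39 bases before the start: gcgggacggccGCGGGAAAaggcgcgcgga
MTR, E2F, chr1:236795120-236795149, match from 161 bases before the start: gaaaagctcccGCGGGAAActggggagcgg
MTR, ETS, chr1:236795080-236795109, match from 201 bases before the start: cttaggcttacACTTCCGGatcctgggcac
No match overlapped another. The E-box was in 2 of the 8 members' windows and in 6.34% of 35116 RefSeq promoters of that length, and TTTCCCGC was in 2 of 8 against 1.39%. The ETS letters were in 1 of 8 against 3.42%. TGATGNAA was in 0 of 8 against 3.14%, and TTTGGCGC in 0 of 8 against 0.55%. A match describes letters only, and the windows hang on the start chosen: the RefSeq start lies 141459 bases from the outermost GENCODE 29 start for MTHFD1L, 9655 for SLC19A1, 8584 for FPGS and 322 for MTHFD1, so the MTHFD1 and FPGS sites, and all but the first base of the TYMS site, fall inside the span that GENCODE 29 gives those genes.

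Library totals ran from 15424512 to 27366499 counts. Levels are given as CPM, counts scaled to a common library size, here with TMM factors, a scaling that sets the bulk of genes level between libraries. A count of 0 would allow up to 3 reads, which is 0.107 to 0.178 CPM in a library, far below any member; such limits and all CPM cover counting error only. HEXIM1, a gene known to rise under BET inhibition, rose by 2.46 log2 units in KMS-11, by 3.04 in KMS-12 and by 2.32 in RPMI8226. The summed level of 8 plasma cell markers lay between 1581 and 4030 CPM, while B cell, T cell, myeloid and stromal or endothelial markers summed to at most 3.16, 5.09, 3.33 and 1.38 CPM in any library. MALAT1, an abundant nuclear RNA, took 3.61% to 9.01% of the counts in DMSO libraries, 14.5% to 16.5% in the KMS-11 JQ1 libraries, 25.7% and 25.8% in those of KMS-12 and 6.31% to 6.56% in those of RPMI8226. In bulk RNA, fewer cells of a type and less RNA per cell cannot be told apart.

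With all 12 libraries in the fit, most of the 9 genes were called lower with JQ1 in KMS-11 and KMS-12, and 1 in RPMI8226. In KMS-12 all 9 passed the test (adjusted p under 0.05, edgeR quasi-likelihood F test, Benjamini-Hochberg over all genes tested): 7 fell and FPGS and SHMT1 rose, where 46.0% of all genes passed, 20.2% higher and 25.7% lower. In KMS-11, 6 members fell and FPGS rose, against 38.5% of all genes called (17.3% higher, 21.2% lower). In RPMI8226 SLC19A1 fell and TYMS and SHMT1 rose, 3 of 9 where 32.2% of all genes were called (13.6% higher, 18.6% lower), a share close to the background. With only RPMI8226 in the fit, SHMT2 and MTHFD1L were also called lower. The members' median log2 difference was -0.70 for KMS-11 (0 for all genes tested), -1.16 for KMS-12 (-0.06) and 0.01 for RPMI8226 (-0.03). Over the average of the lines 7 fell and 2 rose, with 49.0% of all genes called, 22.3% higher and 26.7% lower. The JQ1 and DMSO libraries did not overlap for 7 members of KMS-11 (63.5% of all genes), 9 of KMS-12 (72.2%) and 6 of RPMI8226 (65.8%), shares read against a high background. Since earlier results were known when the members were chosen, these comparisons with all genes are a description.

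**Figure D1:**
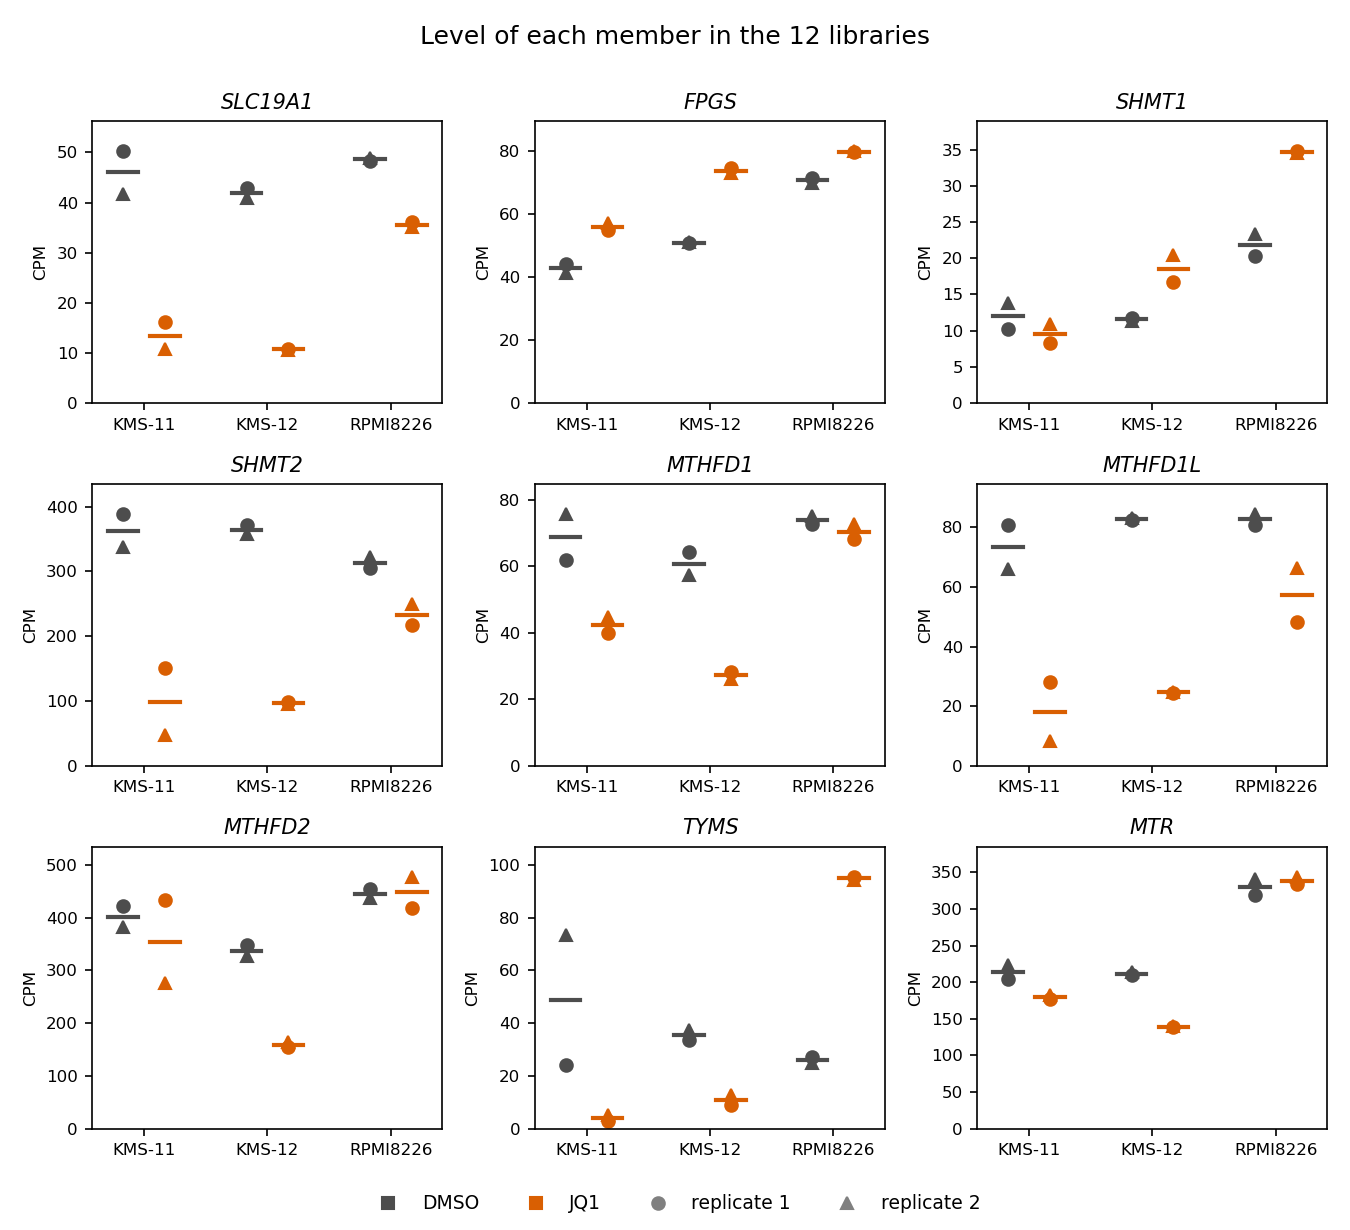
CPM (TMM-scaled) of the 9 members in each of the 12 libraries, by line; grey symbols are DMSO, orange JQ1, circles replicate 1, triangles replicate 2, and bars the mean of 2. SLC19A1 falls from about 42 to 50 CPM to 10.6 to 16.2 in KMS-11 and KMS-12 and only to 35.0 and 36.2 in RPMI8226, and TYMS is the member whose JQ1 libraries lie below DMSO in KMS-11 and KMS-12 and above it in RPMI8226.

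SLC19A1 (ENSG00000173638; chromosome 21, 45493572 to 45544411, minus strand, GRCh38, GENCODE 29) encodes the carrier that exchanges folate for other anions at the plasma membrane. Its DMSO libraries held 50.2 and 41.8 CPM for KMS-11, 42.9 and 40.8 for KMS-12, and 48.4 and 48.9 for RPMI8226. Its JQ1 libraries held 16.2 and 10.7, 10.8 and 10.6, and 36.2 and 35.0 CPM in the same order. Every JQ1 library lay below every DMSO library of all 3 lines, and the DMSO libraries of all lines lay between 40.8 and 50.2 CPM. The level was 3.41-fold lower with JQ1 in KMS-11 (log2 -1.77, SE 0.16, adjusted p 9.28e-08) and 3.93-fold lower in KMS-12 (log2 -1.97, SE 0.16, adjusted p 1.91e-08). RPMI8226 showed a fall of 1.37-fold (log2 -0.45, SE 0.15, adjusted p 0.0255). That last call was lost when any of the 4 RPMI8226 libraries was left out, with an adjusted p of 0.0847 to 0.110 and log2 values of -0.47 to -0.43. The carrier's response was smaller in RPMI8226 than in KMS-11 by 1.32 log2 units (SE 0.21, adjusted p 0.000454) and than in KMS-12 by 1.52 (SE 0.21, adjusted p 4.75e-05). SLC19A1 shares 1401 of its exon bases, 14.0%, with COL18A1 on the other strand, and it is not known whether counting used the strand. COL18A1 held 94.9 and 164 CPM in the KMS-11 DMSO libraries, and 79.3 and 106 with JQ1, but at most 3.71 CPM in any library of KMS-12 or RPMI8226, the lines in which the carrier's reads can hardly include it.

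The other folate carriers gave a plainer picture. SLC46A1, the proton-coupled folate carrier, held 14.3 to 30.2 CPM over the 12 libraries and its responses of 0.09, -0.11 and 0.06 log2 units did not pass the test. SLC25A32, the carrier that takes folate into mitochondria, was at 3.27 to 10.5 CPM, and only its average over the lines was called (log2 0.35, SE 0.14, adjusted p 0.0389). The folate receptors FOLR1, FOLR2 and FOLR3 did not pass the filter on low counts. GGH, the lysosomal hydrolase that removes the glutamates FPGS adds, fell in KMS-11 from 36.7 and 66.9 CPM to 11.6 and 13.5 (log2 -2.05, SE 0.22, adjusted p 4.64e-06). Its fall in KMS-12 was smaller (log2 -0.76, SE 0.22, adjusted p 0.0120), and in RPMI8226 its value was 0.45 (SE 0.22, adjusted p 0.140).

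FPGS (ENSG00000136877; chromosome 9, 127794597 to 127814327, plus strand) adds glutamates to folate and to antifolates. It went the other way from the carrier. DMSO libraries held 44.2 and 41.2 CPM for KMS-11, 50.7 and 50.9 for KMS-12, and 71.2 and 69.8 for RPMI8226. With JQ1 they held 54.7 and 57.0, 74.4 and 73.0, and 79.5 and 79.8 CPM. The groups did not overlap in any line. FPGS rose 1.31-fold in KMS-11 (log2 0.39, SE 0.09, adjusted p 0.00244) and 1.45-fold in KMS-12 (log2 0.54, SE 0.09, adjusted p 9.39e-05), and its value in RPMI8226 was 0.18 (SE 0.09, adjusted p 0.152). These rises hang on the scaling. On library size alone the median of all genes moved by -0.26 (KMS-11), -0.77 (KMS-12) and -0.03 (RPMI8226). The part of the MALAT1 share in that shift was not tested. With this scaling FPGS was at 0.13 (adjusted p 0.321) in KMS-11 and at -0.23 (adjusted p 0.0396) in KMS-12. FPGS was therefore higher relative to the bulk of genes, and in KMS-12 lower as a share of all reads. The split of all calls moved as well: under library size alone 23.8% of calls (KMS-11), 7.5% (KMS-12) and 39.4% (RPMI8226) were rises, against 45.0%, 44.0% and 42.2% with TMM.

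SHMT2 (ENSG00000182199; chromosome 12, 57229327 to 57234935, plus strand), the mitochondrial entry of serine carbon into the folate pool, held 388 and 337 CPM in the KMS-11 DMSO libraries, 371 and 358 in those of KMS-12 and 305 and 321 in those of RPMI8226. With JQ1 the KMS-11 libraries held 150 and 46.8 CPM, the KMS-12 libraries 98.4 and 94.6, and the RPMI8226 libraries 217 and 249. All 6 JQ1 libraries lay below all 6 DMSO libraries, but the JQ1 pair of KMS-11 differed from each other more than any other pair. SHMT2 was 3.67-fold lower in KMS-11 (log2 -1.88, SE 0.47, adjusted p 0.0208) and 3.77-fold lower in KMS-12 (log2 -1.92, SE 0.47, adjusted p 0.0162). For RPMI8226 the value was -0.43 (SE 0.46, adjusted p 0.544), not a call. The wide pair of KMS-11 enters the spread that the lines share: with only its own libraries in the fit the RPMI8226 value was -0.40 with adjusted p 0.00570, and without either KMS-11 JQ1 library it was -0.43 with adjusted p 0.00295. In KMS-11 the value was -2.95 (adjusted p 5.55e-11) without JQ1 replicate 1 and -1.27 (4.74e-07) without JQ1 replicate 2. The KMS-11 call was lost without its DMSO replicate 1 (adjusted p 0.0772) or replicate 2 (0.0580) and with only KMS-11 in the fit (0.0552). The KMS-12 call was lost without any of its 4 libraries (adjusted p 0.0566 to 0.0923), with log2 values of -1.94 to -1.88.

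SHMT1 (ENSG00000176974; chromosome 17, 18327860 to 18363563, minus strand), the cytosolic enzyme of the pair, was the member with the fewest reads in total. DMSO libraries held 10.3 and 13.9 CPM for KMS-11, 11.7 and 11.4 for KMS-12, and 20.3 and 23.3 for RPMI8226. With JQ1 the values were 8.23 and 10.9, 16.7 and 20.4, and 34.8 and 34.6 CPM. The KMS-11 groups overlapped, and those of the other lines did not. SHMT1 rose 1.61-fold in KMS-12 (log2 0.68, SE 0.17, adjusted p 0.00361) and 1.59-fold in RPMI8226 (log2 0.67, SE 0.17, adjusted p 0.00558), and its value in KMS-11 was -0.34 (SE 0.18, adjusted p 0.157). The KMS-11 response differed from that of KMS-12 by 1.02 log2 units (SE 0.25, adjusted p 0.00704) and from that of RPMI8226 by 1.01 (SE 0.25, adjusted p 0.0126). The first of these was lost on library size alone (adjusted p 0.132), and the other without KMS-11 JQ1 replicate 1 (0.0651) or RPMI8226 DMSO replicate 1 (0.0643). Scaling mattered here too: on library size alone SHMT1 was at -0.09 in KMS-12 and fell in KMS-11 (log2 -0.59, adjusted p 0.0124). The rise was not called without KMS-12 JQ1 replicate 2 in KMS-12 (log2 0.54, adjusted p 0.0616) or without RPMI8226 DMSO replicate 1 in RPMI8226 (log2 0.57, adjusted p 0.0712), and the KMS-11 value was a call of -0.54 without DMSO replicate 1 (adjusted p 0.0296).

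Set against each other per kilobase of exon, the mitochondrial gene lost ground to the cytosolic one in every line. The ratio of SHMT2 to SHMT1 was 57.0 and 36.6 in the KMS-11 DMSO libraries and 27.5 and 6.48 with JQ1. It went from 47.7 and 47.4 to 8.87 and 6.97 in KMS-12, and from 22.5 and 20.7 to 9.38 and 10.8 in RPMI8226. No JQ1 ratio reached a DMSO ratio of its line. A ratio within a library does not move with the scaling, and it was not tested. Its size depends on the lengths used, here merged exons, while its fold change with JQ1 does not.

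**Figure D2:**
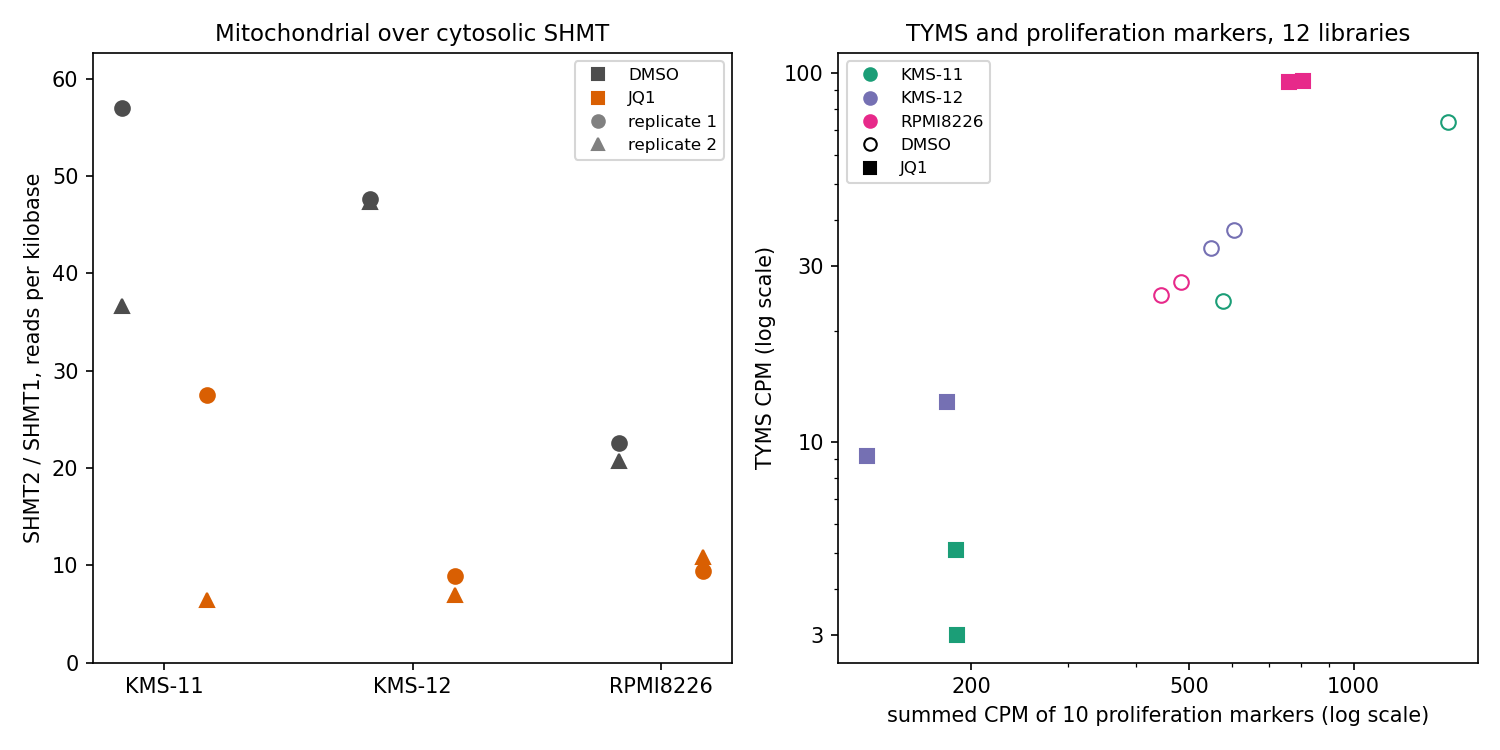
Left, ratio of SHMT2 to SHMT1 reads per kilobase of exon in each library (grey DMSO, orange JQ1, circles replicate 1, triangles replicate 2). Right, TYMS CPM against the summed CPM of 10 proliferation markers, both on log axes (open circles DMSO, filled squares JQ1, colour the line): the ratio is 20.7 to 57.0 in DMSO and 6.48 to 27.5 with JQ1, and the RPMI8226 JQ1 libraries sit at the upper right while those of KMS-11 and KMS-12 sit at the lower left.

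MTHFD1L (ENSG00000120254; chromosome 6, 150865549 to 151101887, plus strand), which releases formate from mitochondria, moved much as SHMT2 did. Its DMSO libraries held 80.9 and 66.0 CPM for KMS-11, 82.4 and 83.3 for KMS-12, and 80.9 and 84.5 for RPMI8226. With JQ1 they held 28.1 and 8.24, 24.5 and 24.8, and 48.4 and 66.4 CPM. The lines were close to each other in DMSO, and the JQ1 libraries lay below the DMSO libraries in each. MTHFD1L was 4.0-fold lower in KMS-11 (log2 -2.0, SE 0.48, adjusted p 0.0174) and 3.36-fold lower in KMS-12 (log2 -1.75, SE 0.47, adjusted p 0.0231), and its RPMI8226 value was -0.53 (SE 0.46, adjusted p 0.442). With only RPMI8226 in the fit that value was -0.51 with adjusted p 0.0136, and it was also called without KMS-11 JQ1 replicate 1 (adjusted p 0.00428) or replicate 2 (0.00426). The KMS-11 value was -3.15 (adjusted p 1.80e-09) without JQ1 replicate 1 and -1.38 (6.06e-06) without JQ1 replicate 2. Its call was lost without DMSO replicate 1 of that line (adjusted p 0.0691) and the KMS-12 call without any of the 4 KMS-12 libraries (0.0809 to 0.115).

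MTHFD2 (ENSG00000065911; chromosome 2, 74198562 to 74217565, plus strand), the mitochondrial dehydrogenase that is low in most adult tissues and high in tumours, was the member with the most reads in total. Its DMSO libraries held 421 and 383 CPM for KMS-11, 347 and 327 for KMS-12, and 453 and 438 for RPMI8226. JQ1 libraries held 433 and 276, 155 and 164, and 419 and 477 CPM. Only KMS-12 showed groups that did not overlap. There MTHFD2 was 2.12-fold lower (log2 -1.08, SE 0.16, adjusted p 6.56e-05). Values of -0.18 in KMS-11 (SE 0.16, adjusted p 0.404) and 0.01 in RPMI8226 (SE 0.16) did not pass. The KMS-12 response was lower than that of KMS-11 by 0.90 log2 units (SE 0.22, adjusted p 0.00994), a call lost without KMS-11 DMSO replicate 1 (0.0633) or replicate 2 (0.133), and lower than that of RPMI8226 by 1.09 (SE 0.22, adjusted p 0.00262). The KMS-11 value turned on its JQ1 pair: it was -0.54 (adjusted p 0.00228) without JQ1 replicate 1 and 0.11 (adjusted p 0.572) without JQ1 replicate 2. MTHFD2 shares 1324 exon bases, 27.2%, with SLC4A5, which held at most 12 CPM.

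KMS-11 JQ1 replicate 2 was the lower library of its pair for ATF4, PHGDH and PSAT1 as well. ATF4, the stress-response factor, held 321 CPM in replicate 1 and 185 in replicate 2. PHGDH, the first enzyme of serine synthesis, held 43.3 and 8.30 CPM, and PSAT1, the second enzyme, 2.09 and 0.56. The library did not lie low for every member: FPGS, SHMT1, MTHFD1, TYMS and MTR were higher in it than in replicate 1. The part of this difference in the values above was tested only by leaving the libraries out.

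MTHFD1 (ENSG00000100714; chromosome 14, 64388031 to 64463457, plus strand), the 3-function cytosolic enzyme, held 61.8 and 75.7 CPM in KMS-11 DMSO libraries, 64.2 and 57.4 in those of KMS-12 and 72.6 and 75.2 in those of RPMI8226. With JQ1 it held 39.8 and 44.6, 28.2 and 26.2, and 68.2 and 72.6 CPM. The groups overlapped in RPMI8226 alone. MTHFD1 was 1.63-fold lower in KMS-11 (log2 -0.70, SE 0.11, adjusted p 8.29e-05) and 2.24-fold lower in KMS-12 (log2 -1.16, SE 0.12, adjusted p 2.70e-07), with a value of -0.07 in RPMI8226 (SE 0.11, adjusted p 0.684). Its response in RPMI8226 differed from that in KMS-12 by 1.09 log2 units (SE 0.16, adjusted p 7.38e-05) and from that in KMS-11 by 0.63 (SE 0.16, adjusted p 0.0142). The latter call was lost without KMS-11 JQ1 replicate 1 (0.0655) or DMSO replicate 2 (0.0538), or RPMI8226 DMSO replicate 1 (0.0601). Per kilobase of merged exon, MTHFD1L stood at 1.63 to 2.71 times MTHFD1 in DMSO and at 0.345 to 1.77 times with JQ1. MTHFD2 stood at 9.74 to 13.1 times MTHFD1 in DMSO and at 10.6 to 20.9 times with JQ1.

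TYMS (ENSG00000176890; chromosome 18, 657604 to 673578, plus strand) makes thymidylate from deoxyuridylate and is the target of fluorouracil. It fell in KMS-11 and KMS-12 and rose in RPMI8226. Its DMSO libraries held 24.2 and 73.6 CPM for KMS-11, 33.5 and 37.5 for KMS-12, and 27.2 and 25.0 for RPMI8226. With JQ1 they held 3.0 and 5.10, 9.14 and 12.8, and 95.4 and 94.4 CPM. The groups did not overlap in any line. In KMS-11 the level was 12.2-fold lower (log2 -3.60, SE 0.59, adjusted p 0.00315) and in KMS-12 3.23-fold lower (log2 -1.69, SE 0.52, adjusted p 0.0376), while in RPMI8226 it was 3.64-fold higher (log2 1.86, SE 0.50, adjusted p 0.0303). The KMS-11 value was -4.20 (adjusted p 1.87e-09) without its DMSO replicate 1 and -2.58 (3.30e-07) without DMSO replicate 2. RPMI8226 differed from KMS-11 by 5.47 log2 units (SE 0.77, adjusted p 0.00638), or by 6.07 and 4.42 without those same libraries, and from KMS-12 by 3.56 (SE 0.72, adjusted p 0.0139), the latter lost without KMS-12 JQ1 replicate 1 (0.0657) or RPMI8226 DMSO replicate 1 (0.0562) or 2 (0.0615). KMS-11 and KMS-12 differed by 1.91 (adjusted p 0.156), or by 2.51 without KMS-11 DMSO replicate 1 and 0.90 without replicate 2. This difference was called with DESeq2 (1.93, adjusted p 0.0433). It was also called with a block for the replicate number within each line (1.78, adjusted p 3.22e-05), but not with a block over all lines (1.82, adjusted p 0.138). The wide KMS-11 DMSO pair enters the spread that the lines share. In KMS-12 the call was lost with no filter on low counts (adjusted p 0.0742) and on leaving out any library but the KMS-11 DMSO libraries. The RPMI8226 call was lost with no filter (0.0579) and on leaving out any library of KMS-12 or RPMI8226 (0.0509 to 0.152). The log2 values over these leave-outs were -1.95 to -1.47 for KMS-12 and 1.80 to 1.92 for RPMI8226. With only the line's own libraries in the fit, TYMS was called in each line. The values were -3.60 in KMS-11 (adjusted p 0.0125), -1.65 in KMS-12 (1.7e-09) and 1.89 in RPMI8226 (2.19e-07). Over the average of the lines TYMS was at -1.14 (SE 0.31, adjusted p 0.0200), lost in 6 of the leave-outs (up to 0.0713).

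Proliferation genes moved beside TYMS. Of 10 markers, 8 fell and CCNE2 rose in KMS-11, 8 fell in KMS-12 and 5 rose in RPMI8226. Among all genes, 21.2% fell and 17.3% rose in KMS-11, 25.7% fell in KMS-12 and 13.6% rose in RPMI8226. By the F test, where 30.1% of all genes differed between lines, all 10 markers did. Their median log2 difference was -2.54 for KMS-11, -2.48 for KMS-12 and 0.76 for RPMI8226. The summed level was 577 CPM in KMS-11 DMSO replicate 1 and 1490 in replicate 2, the replicates in which TYMS was at 24.2 and 73.6. It was 187 to 188 CPM in the KMS-11 JQ1 libraries, 548 to 604 and 129 to 181 in KMS-12 DMSO and JQ1, and 444 to 483 and 761 to 809 in RPMI8226 DMSO and JQ1. What part the share of dividing cells has in the TYMS values was not tested. TYMS shares 967 exon bases, 39.1% of its exons, with ENOSF1 on the other strand and 183 with the non-coding TYMSOS. ENOSF1 fell in each line, by 0.61, 1.68 and 0.43 on the log2 scale. It thus moved with TYMS in KMS-11 and KMS-12 and against it in RPMI8226. In KMS-12 its fall was close in size to that of TYMS (log2 -1.69). Over all libraries ENOSF1 held 41416 counts and TYMS 9660. The strand setting of the counts is not known, and the part of ENOSF1 reads in the TYMS values was not tested.

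MTR (ENSG00000116984; chromosome 1, 236795281 to 236903981, plus strand) passes a methyl group from folate to homocysteine. Its DMSO libraries held 205 and 223 CPM for KMS-11, 209 and 214 for KMS-12, and 320 and 341 for RPMI8226. JQ1 libraries held 177 and 183, 139 and 140, and 334 and 344 CPM. The RPMI8226 groups overlapped. MTR was 1.52-fold lower in KMS-12 (log2 -0.60, SE 0.09, adjusted p 2.20e-05) and 1.19-fold lower in KMS-11 (log2 -0.25, SE 0.09, adjusted p 0.0314), the smallest fall called among the members, with 0.04 in RPMI8226 (SE 0.09, adjusted p 0.800). The KMS-11 call was lost with only that line in the fit (adjusted p 0.143), without its JQ1 replicate 1 (0.156) or replicate 2 (0.0777), without its DMSO replicate 2 (0.165) and without either KMS-12 JQ1 library (0.0541). KMS-12 and RPMI8226 differed in response by 0.64 log2 units (SE 0.12, adjusted p 0.00101). MTRR, the reductase that keeps MTR active, went the other way, rising in KMS-11 (log2 0.47, SE 0.12, adjusted p 0.00344) and KMS-12 (log2 0.93, SE 0.12, adjusted p 3.82e-06).

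**Figure D3:**
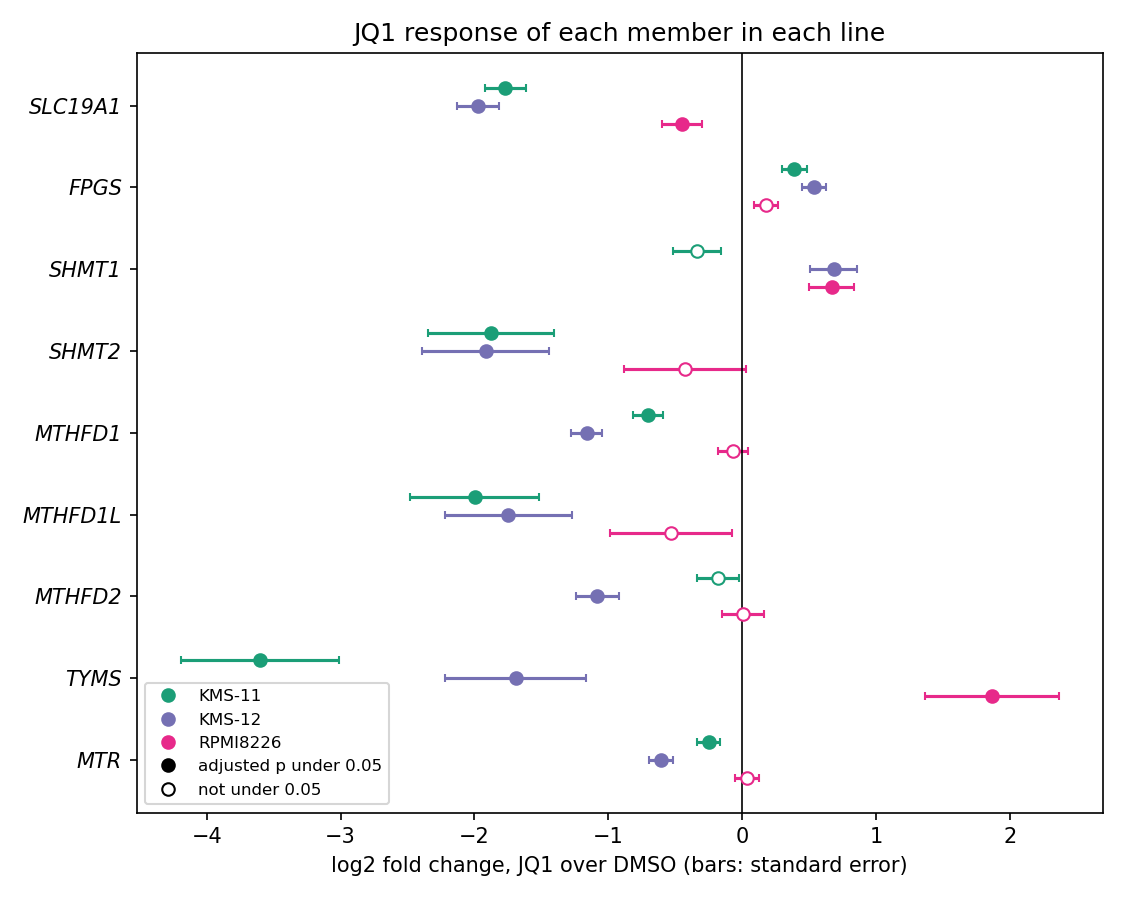
log2 fold change (JQ1 over DMSO, TMM scaling) of each member in KMS-11 (green), KMS-12 (purple) and RPMI8226 (pink), with standard errors; filled points have an adjusted p under 0.05. The RPMI8226 points of MTHFD1, MTHFD2 and MTR lie between -0.07 and 0.04, and the widest bars are those of TYMS, MTHFD1L and SHMT2.

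A test of any difference between the 3 responses called 6 of the 9 members, where 30.1% of all genes were called. They were SLC19A1 (adjusted p 4.81e-05), MTHFD1 (0.000176), MTR (0.00245), MTHFD2 (0.00376), TYMS (0.00508) and SHMT1 (0.00548). MTHFD2 was not called without KMS-11 DMSO replicate 2 (0.0590). SHMT2 (0.208) and MTHFD1L (0.249) did not pass with all 12 libraries. Both passed once KMS-11 JQ1 replicate 1 was left out (3.95e-09 and 3.35e-07) or replicate 2 (8.69e-07 and 0.000201), and with limma-voom (0.0185 and 0.0275). By pairs of lines, 2 members differed between KMS-12 and KMS-11 (20.0% of all genes), 4 between RPMI8226 and KMS-11 (11.4%) and 6 between RPMI8226 and KMS-12 (23.4%). These contrasts share libraries and are not independent. For SHMT2 KMS-12 minus KMS-11 was -0.04, yet 1.04 (adjusted p 0.000173) without KMS-11 JQ1 replicate 1 and -0.64 (0.00766) without replicate 2, and for MTHFD1L it was 0.25, yet 1.41 (0.000272) without the first. FPGS differed between RPMI8226 and KMS-12 by -0.36 log2 units (SE 0.13) at adjusted p 0.0490, a call lost in 12 of the alternatives tried, 10 of them leave-outs (up to 0.160), and turned to 0.38 on library size alone.

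In DMSO, levels of some members differed between lines. RPMI8226 held more SHMT1 than KMS-11 (log2 0.86, SE 0.17, adjusted p 0.000372), more FPGS (0.72, SE 0.09, adjusted p 2.17e-06) and more MTR (0.62, SE 0.09, adjusted p 8.62e-06), and against KMS-12 the same 3 genes were higher by 0.92, 0.47 and 0.64. MTHFD1 (0.28, adjusted p 0.0360) and MTHFD2 (0.40, adjusted p 0.0366) were also higher in RPMI8226 than in KMS-12, both lost on library size alone (0.317 and 0.220). MTHFD1 also lost the call without RPMI8226 DMSO replicate 1 (0.0754) or 2 (0.138) or KMS-12 DMSO replicate 2 (0.247), and MTHFD2 without any 1 of the 6 DMSO libraries (0.0832 to 0.160). Only FPGS differed between KMS-12 and KMS-11 (0.25, SE 0.09, adjusted p 0.0219), and without KMS-12 DMSO replicate 1 or 2 or KMS-11 DMSO replicate 2 it did not (0.0818 to 0.101). That is 3, 5 and 1 members, where 58.2%, 62.5% and 62.9% of all genes differed. SLC19A1 was among the members not called, with differences of -0.14 to 0.22.

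Compared per kilobase of merged exon, the mitochondrial enzymes MTHFD2 and SHMT2 stood highest. In KMS-11 with DMSO, MTHFD2 stood at 82.6 ± 5.54 and SHMT2 at 75.0 ± 7.46 CPM per kilobase (SD, n = 2). The spreads between libraries of these 2 neighbours overlap, and their difference within a library was not tested. TYMS (19.8 ± 14.2), MTR (18.8 ± 1.15) and MTHFD1L (14.6 ± 2.10) followed, and then FPGS (10.9 ± 0.54), MTHFD1 (7.33 ± 1.05), SLC19A1 (4.60 ± 0.60) and SHMT1 (1.66 ± 0.35); the TYMS spread covers MTR, MTHFD1L, FPGS and MTHFD1, so its place among them is not set. KMS-12 put SHMT2 (75.3 ± 1.95) above MTHFD2 (69.2 ± 2.99), and RPMI8226 put MTHFD2 (91.5 ± 2.29) above SHMT2 (64.7 ± 2.46). Dividing by the longest transcript instead put SHMT2 at 106 and MTHFD2 at 90.2 in KMS-11, so the order of these 2 depends on the length used. That length also put SLC19A1 above MTHFD1 and brought MTR and MTHFD1L close together. The order printed for the members therefore holds for merged exon length.

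Serine synthesis, which feeds SHMT2, was tested with 3 genes. PHGDH, PSAT1 and PSPH fell in KMS-11 and KMS-12, where 21.2% and 25.7% of all genes fell. In RPMI8226 0 of 3 was called, against 32.2% of all genes. PHGDH went from 116 and 103 CPM to 43.3 and 8.30 in KMS-11 (log2 -2.07, SE 0.62, adjusted p 0.0411) and from 74.0 and 67.5 to 12 and 14.4 in KMS-12 (log2 -2.43, SE 0.66, adjusted p 0.0233). In RPMI8226 it held 132 and 135 CPM in DMSO and 118 and 148 with JQ1. PSAT1, by contrast, differed in DMSO level, at 6.04 and 7.23 CPM in KMS-11 and 182 and 204 in RPMI8226. The list had a median log2 difference of -2.07 (KMS-11), -2.43 (KMS-12) and -0.05 (RPMI8226).

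Other genes of the folate cycle moved in more than 1 direction. ALDH1L2, a mitochondrial enzyme that oxidises formyl-folate to carbon dioxide, fell in all 3 lines by 2.55, 1.59 and 1.81, RPMI8226 included (adjusted p 0.0276). MTFMT, which formylates the mitochondrial initiator tRNA, rose in all 3 by 1.58, 0.77 and 1.30. MTHFD2L, the close relative of MTHFD2, was not called in any line (0.04, 0.12 and 0.08).

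Other mitochondrial donors of one-carbon units were given by 6 genes, with 2 rises and 1 fall for KMS-11, 1 and 3 for KMS-12 and 0 and 2 for RPMI8226. The shares of all genes called were 38.5%, 46.0% and 32.2% in the same order, and counts over so few genes are a description. GLDC, the decarboxylase of the glycine cleavage system, held 203 and 190 CPM in KMS-12 DMSO libraries and 953 and 977 with JQ1, a rise of 4.92-fold (log2 2.30, SE 0.11, adjusted p 3.45e-11). Elsewhere it was scarce, at most 2.92 CPM in KMS-11 and under the floor of 3 reads in every RPMI8226 library. SARDH, which takes a one-carbon unit from sarcosine, fell in all 3 lines by 3.41, 3.10 and 1.35 on the log2 scale.

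The branches that use the units moved less evenly. Their counts are a description, to be read beside the 38.5% (KMS-11), 46.0% (KMS-12) and 32.2% (RPMI8226) of all genes that were called. Of 8 genes of thymidylate and dNTP supply, KMS-11 showed 2 rises and 6 falls, KMS-12 showed 2 and 5, and RPMI8226 showed 4 and 1. TK1, thymidine kinase, had log2 values of -3.70, -1.30 and 1.34 and RRM2, a ribonucleotide reductase subunit, -6.01, -2.86 and 1.90, each called in each line and in the directions of TYMS. SAMHD1, which breaks dNTPs down, rose in all 3 lines (1.5, 2.16 and 1.68). Of 8 genes of purine ring synthesis, there were 2 rises and 4 falls for KMS-11, 1 and 5 for KMS-12 and 1 and 0 for RPMI8226, with medians of -0.17, -0.35 and -0.0048. PAICS fell by 0.73 and 0.80 in KMS-11 and KMS-12, and ADSL rose in all 3 lines by 0.53, 0.63 and 0.75. Of 9 genes of the methionine cycle and transsulfuration, 6 passed the filter on low counts. Among these, rises and falls were 0 and 2 for KMS-11, 2 and 1 for KMS-12, and 2 and 2 for RPMI8226. CTH, the last enzyme of cysteine synthesis, fell in all 3 lines (-1.37, -1.92 and -1.34), and MAT2A, which makes the methyl donor S-adenosylmethionine, rose in KMS-12 (0.62) and RPMI8226 (0.55).

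**Figure D4:**
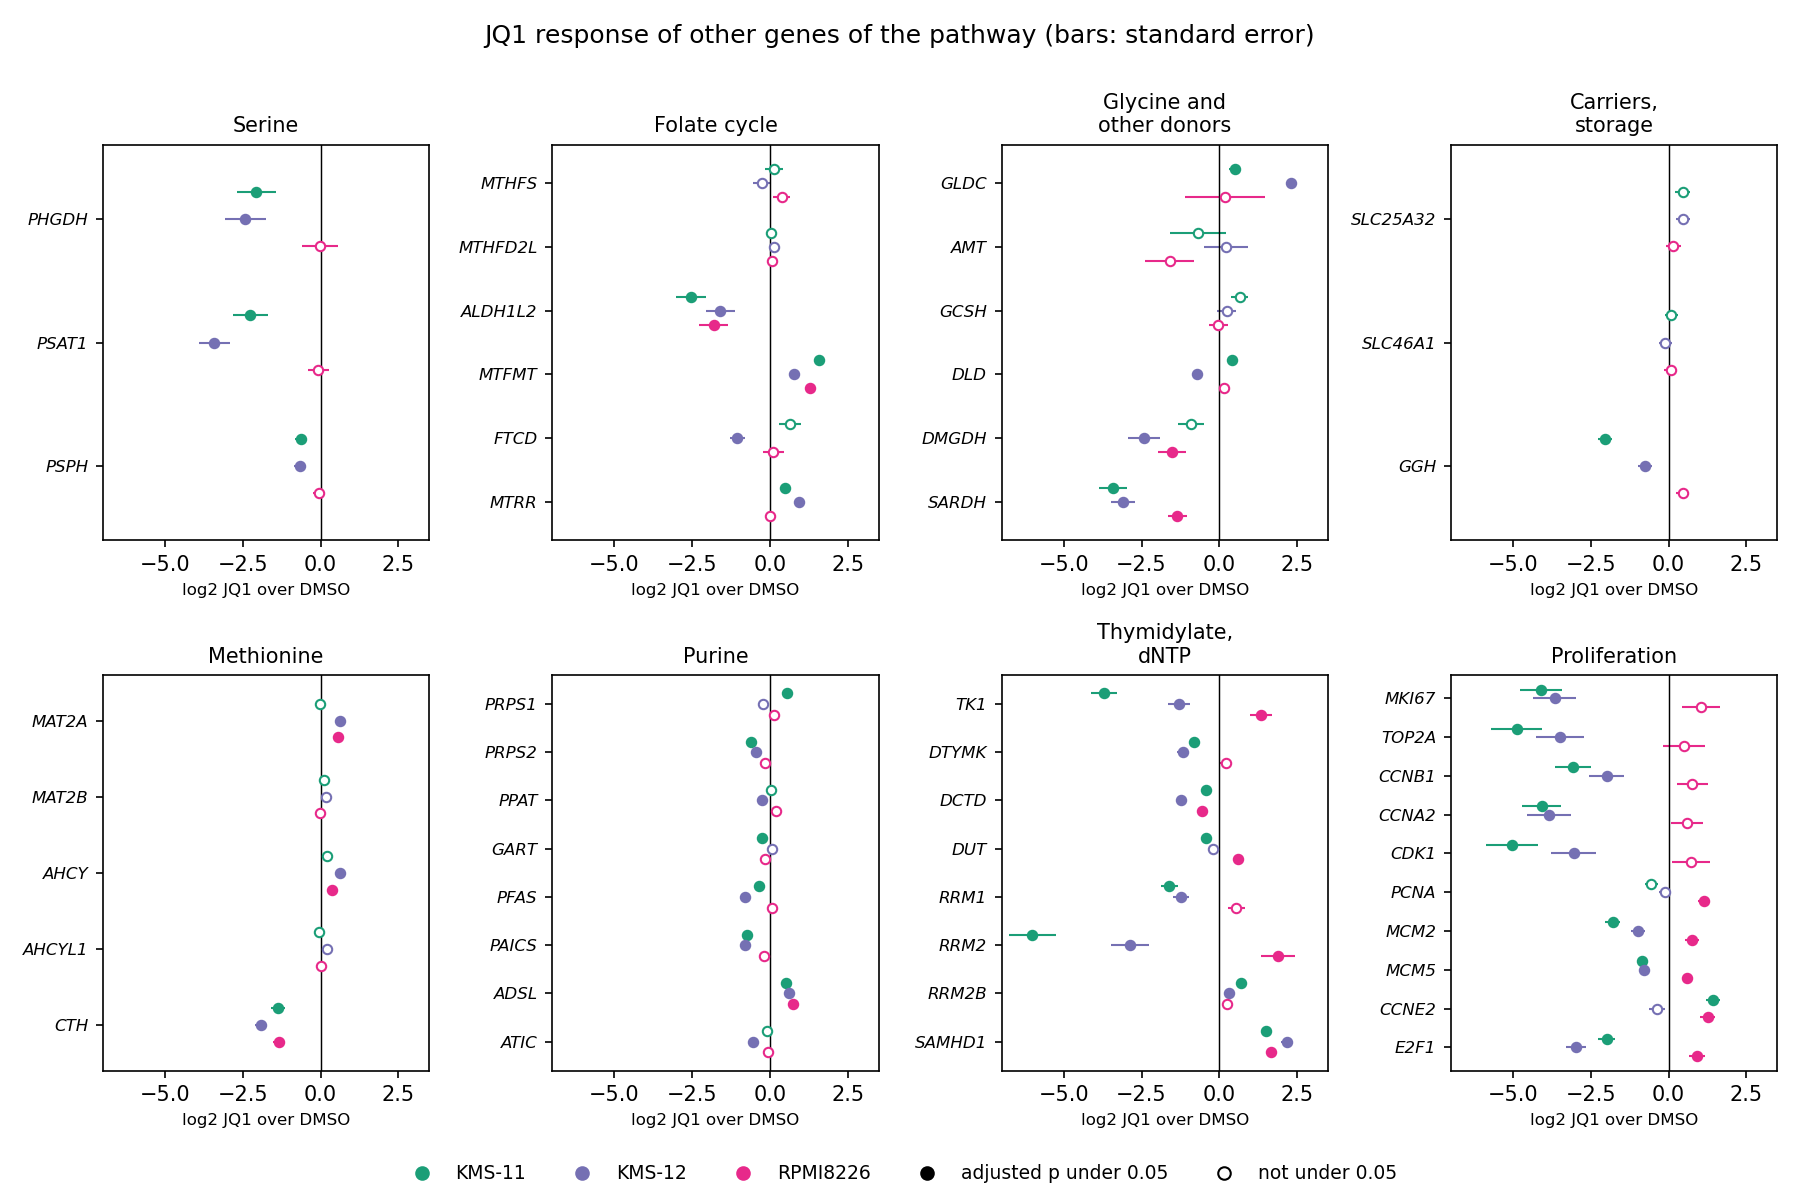
log2 fold change (JQ1 over DMSO, TMM scaling) with standard errors for the listed genes of the pathway outside the 9 members and for 10 proliferation markers, by list; colours and filling as in the plot of the members' responses, and some genes, among them those with no reads in a group, are not drawn. The serine synthesis genes lie left of 0 in KMS-11 and KMS-12 and close to 0 in RPMI8226, and TK1, RRM2 and most proliferation markers lie left of 0 in those 2 lines and right of it in RPMI8226.

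MYC, ATF4 and E2F1, known regulators of the pathway, all fell over the average of the lines (log2 -0.64, -0.58 and -1.35). MYC held 478 and 359 CPM in KMS-11 DMSO libraries and 362 and 241 with JQ1, a difference of -0.47 (SE 0.19, adjusted p 0.0679). It fell in KMS-12 (-0.88, SE 0.19, adjusted p 0.00247) and in RPMI8226 (-0.56, SE 0.19, adjusted p 0.0410). ATF4 fell in KMS-11 (-0.83, SE 0.25, adjusted p 0.0330), with values of -0.71 (adjusted p 0.0528) in KMS-12 and -0.21 (adjusted p 0.579) in RPMI8226. E2F1 fell in KMS-11 and KMS-12 (-2.0 and -2.97) and rose in RPMI8226 (0.91, SE 0.26, adjusted p 0.0196), the same signs as TYMS. It is also among the proliferation markers set beside TYMS above. MTHFD1 and FPGS, the members with an E-box in the stretch printed above, went in opposite directions in KMS-11 and KMS-12. TYMS and MTR, the members with TTTCCCGC, both fell in KMS-11 and KMS-12, while in RPMI8226 TYMS rose and MTR was not called. Whether MYC, ATF4 or E2F1 has a part in the members' values was not tested.

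For each member the genes closest in pattern were taken by Pearson's r of log2 CPM over the 12 libraries, among 12003 genes with a mean of at least 5 CPM; r is a description here, since the libraries share lines and treatment. SHMT2 and MTHFD1L were each other's near neighbours (r 0.982), both with the glycine carrier SLC6A9 (0.969 and 0.987), and SHMT2 with the proline enzyme PYCR1 (0.969). TYMS was closest to CENPI (0.982), NCAPH (0.981) and TK1 (0.978), genes of chromosome segregation, chromosome condensation and thymidine salvage. MTHFD2 was closest to the arginine carrier SLC7A1 (0.977), then TCF7L2 (0.972) and YBX3 (0.970). SLC19A1 was closest to ARRDC2 (0.977), then RAD51B (0.976), and MTHFD1 to C1orf216 (0.978), then TSKU and PACSIN1 (both 0.975). MTR was closest to RAPGEF5 (0.991), FPGS to UBR4 (0.991) and SHMT1 to CAMSAP2 and GAS6 (both 0.939), the loosest match of the 9. Among the members themselves, r was 0.94 between SLC19A1 and SHMT2, 0.91 between SLC19A1 and MTHFD1, 0.98 between SHMT2 and MTHFD1L, and -0.33 between FPGS and SHMT2.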

How the data were processed

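RNA-seq libraries came from total RNA by a stranded kit that depletes ribosomal RNA, per the labels' protocols. The authors deposited raw read counts, whole numbers per Ensembl gene ID and library. Per the submitters' processing notes, DESeq2 and MACS2 were used, and hg38 and GRCh38.p13 are the builds named; no role is given for any of them. The sources used here do not give the aligner, the counter, the annotation release or the strand setting. Reads of antisense genes, overlapping genes and copies are therefore uncertain; the 11 named pseudogenes of members held 0 to 12 reads each. Depth ran from 15424512 to 27366499 counts. Replicates differed by more than sampling noise (chi-square per degree of freedom 5.64 to 22.3).

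Symbols came from a gene name table (60437 of 60666 IDs), positions and exon lengths from GENCODE 29, and promoters from RefSeq. In R 4.3.3, edgeR 4.0.16 was run on the counts as deposited: filterByExpr over 6 groups (minimum count 10, minimum total 15), TMM, a robust quasi-likelihood fit with a mean per group over all 12 libraries, F tests, and Benjamini-Hochberg adjustment over 23493 genes, called under 0.05. CPM use TMM-scaled library sizes. Code was tested on simulated counts. The named genes are the members, the listed genes of the pathway and, per member, the 3 genes of highest Pearson's r (log2 CPM). Some listed genes, and the counts that rest on them, are not reported here. Members and lists were chosen with earlier results of these data known. The alternatives changed the scaling (RLE factors, plain library size, TMM leaving out immunoglobulin, mitochondrial, histone, 7SK and 7SL genes), the filter (1 read, or 10 CPM on average), the tool (DESeq2 1.42.0, limma 3.58.1 with voom), the design (replicate blocks, the compared lines alone) or left out each library in turn.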

Additional observations from a re-analysis of the deposited data

Results flagged for a closer look

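The responses of 6 members to JQ1 differed between the 3 lines by the edgeR quasi-likelihood F test, which is why they are listed; 30.1% of all genes tested differed too. SLC19A1 (adjusted p 4.81e-05) fell by 1.77 and 1.97 log2 units in KMS-11 and KMS-12 and by 0.45 in RPMI8226. MTHFD1 (adjusted p 0.000176) fell in KMS-11 and KMS-12, by 0.70 and 1.16, with -0.07 in RPMI8226. MTR (adjusted p 0.00245) fell by 0.60 in KMS-12 and by 0.25 in KMS-11, with 0.04 in RPMI8226. MTHFD2 (adjusted p 0.00376) fell by 1.08 in KMS-12, with -0.18 in KMS-11 and 0.01 in RPMI8226. TYMS (adjusted p 0.00508) fell by 3.60 and 1.69 in KMS-11 and KMS-12 and rose by 1.86 in RPMI8226. SHMT1 (adjusted p 0.00548) rose by 0.68 in KMS-12 and 0.67 in RPMI8226, with -0.34 in KMS-11. The median of the 10 proliferation markers had the sign of TYMS in each line, though CCNE2 rose in KMS-11; their part in these values was not tested.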

How the results depend on the processing

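Of 2133 alternative values of the members, 1912 kept direction and side of the threshold, 92 lost a call, 67 gained one and 62 changed sign. On library size alone, members called higher were 0 in the average, in KMS-11 and in KMS-12; all genes called were 2116 higher and 10351 lower in the average, 2231 higher in KMS-11, 1035 higher and 12780 lower in KMS-12, 11281 for any difference between lines, 7647 for KMS-12 minus KMS-11 and 10247 for RPMI8226 minus KMS-12, and 5 members differed in response between KMS-12 and KMS-11, 2 in DMSO level between them and 3 between RPMI8226 and KMS-12. Signs that changed there were SHMT1 in the average (-0.01) and KMS-12 (-0.09), FPGS in KMS-12 (-0.23), MTHFD2 in RPMI8226 (-0.02), the differences of response of KMS-12 minus KMS-11 for MTHFD1L (-0.26) and FPGS (-0.36), of RPMI8226 minus KMS-11 for FPGS (0.02) and of RPMI8226 minus KMS-12 for SHMT1 (0.72) and FPGS (0.38), and the DMSO levels of KMS-12 minus KMS-11 for MTHFD1 (0.04), SHMT1 (0.16), SLC19A1 (0.07) and MTR (0.20). The cause was not tested. Counts of members in the alternatives and leave-outs of this section show how calls moved from the main fit. The share of all genes called in the same fit is not given for each, so they are not read against it. With a mean of at least 10 CPM fewer genes were tested: 3697, 3081, 3415 and 2564 genes were lower in the average, KMS-11, KMS-12 and RPMI8226, 7606, 7054 and 7495 differed in DMSO level (KMS-12 minus KMS-11, RPMI8226 minus KMS-11, RPMI8226 minus KMS-12), and 4 members differed in response between KMS-12 and KMS-11; in RPMI8226 MTHFD2 was at -0.05 and MTR at -0.02, SHMT1 at 0.01 (RPMI8226 minus KMS-12) and MTR at 0.04 (DMSO, KMS-12 minus KMS-11). With no filter, 1 member was higher in RPMI8226, and the DMSO level of MTHFD1L was 0.0037 (RPMI8226 minus KMS-12). With only the lines compared in the fit, 3 members were lower in RPMI8226 and 8 differed in DMSO level between RPMI8226 and KMS-12. The main fit called 1 and 5 members there, and 18.6% and 62.5% of all genes. With only the lines compared, SHMT1 was at 0.01 (response, RPMI8226 minus KMS-12), MTR at 0.01 (DMSO, KMS-12 minus KMS-11) and MTHFD1L at 0.001 (DMSO, RPMI8226 minus KMS-12). RLE scaling and DESeq2 each put MTHFD2 at -0.03 in RPMI8226 and MTHFD1L at 0.02 (DMSO, RPMI8226 minus KMS-12), with MTR in RPMI8226 at -0.0021 and -0.0023, and DESeq2 called 4 members between KMS-12 and KMS-11. For SHMT2 limma-voom gave 0.17 (response, KMS-12 minus KMS-11).

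Deviations of same-numbered DMSO and JQ1 libraries had r of 0.16 (KMS-11), 0.10 (KMS-12) and 0.38 (RPMI8226) over 10132 genes, against -0.09 to 0.21 across lines; with 2 pairs a line and no label that gives the numbers a meaning, pairing was not assumed. With a replicate block over all lines 4 members differed in response between KMS-12 and KMS-11, SHMT2 was at 0.02 there and SHMT1 at 0.0014 (RPMI8226 minus KMS-12); with a replicate block within each line 5 members differed between KMS-12 and KMS-11, TYMS among them (1.78, adjusted p 3.22e-05), and SHMT2 was at 0.17. The blocks moved no other count of members by over 1.5 times.

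Leaving out 1 library at a time assumes that the library left in its group varies like the other groups. Members called higher and lower ran from 1 to 2 and from 4 to 7 in KMS-12, and from 0 to 2 and from 0 to 3 in RPMI8226, with 0 and 0 without RPMI8226 DMSO replicate 1; members that differed in response ran from 2 to 5 (KMS-12 minus KMS-11) and from 2 to 6 (RPMI8226 minus KMS-11), and in DMSO level from 0 to 3 (KMS-12 minus KMS-11) and from 3 to 5 (RPMI8226 minus KMS-12). All genes higher in RPMI8226 ran from 1998 to 3763, and those that differed between RPMI8226 and KMS-11 from 1639 to 3155, both lowest without RPMI8226 DMSO replicate 2. Responses ran from -0.54 to 0.11 for MTHFD2 in KMS-11, and in RPMI8226 from -0.09 to 0.10 for MTHFD2 and from -0.01 to 0.08 for MTR. Differences of response of KMS-12 minus KMS-11 ran from -0.36 to 1.41 for MTHFD1L, -0.64 to 1.04 for SHMT2 and -0.46 to 0.13 for SLC19A1, each set by the KMS-11 JQ1 libraries, of RPMI8226 minus KMS-11 from -0.10 to 0.55 for MTHFD2, and of RPMI8226 minus KMS-12 from -0.16 to 0.13 for SHMT1. DMSO levels of KMS-12 minus KMS-11 ran from -0.27 to 0.17 for SHMT1, -0.09 to 0.11 for SHMT2, -1.06 to 0.56 for TYMS and -0.08 to 0.05 for MTR; of RPMI8226 minus KMS-11 from -0.04 to 0.27 for MTHFD1, -1.50 to 0.12 for TYMS and -0.03 to 0.21 for SLC19A1; and of RPMI8226 minus KMS-12 from -0.03 to 0.03 for MTHFD1L. Depth did not limit the members, the lowest of which, TYMS in KMS-11 with JQ1, stood at 3.0 CPM.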
